A study of Mus musculus with 100 samples.

Results

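PGC1β was mapped by ChIP-seq in bone marrow-derived macrophages (BMDMs) that received Kdo2 lipid A (KLA) with or without an ERK inhibitor. The comparison rests on 4 of the 100 samples of the series, 2 libraries labelled PGC1b_WT_ERKi_KLA and 2 labelled PGC1b_WT_DMSO_KLA. They were chosen by these labels and by their place in a single table of raw tag counts over 53474 merged PGC1β peaks. The other 2 libraries in that table, PGC1b_WT_DMSO_Veh, received DMSO and vehicle and gave the level without KLA. All 6 came from wild type C57Bl6 mice, were immunoprecipitated with an antibody to PGC1b and carried the same library date in their labels. The DMSO groups received the solvent in place of the inhibitor. Per the study's methods, BMDMs were grown from marrow of adult mice. Neither the time and dose of KLA nor those of the inhibitor stand in the labels of these libraries, and they are not given here. The labels call the samples biological replicates, without saying which animals they came from, so p-values measure the spread between these libraries.

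PGC1β, encoded by Ppargc1b, is a transcriptional coactivator without a DNA-binding domain of its own. It is best known for driving mitochondrial and lipid metabolism genes through nuclear receptors such as ERRα and PPARγ. KLA is the lipid A core of bacterial lipopolysaccharide and a selective agonist of TLR4. TLR4 signals through MyD88 and TRAF6 to NF-κB and to the MAP kinases, ERK1 (Mapk3) among them, and through TRIF (Ticam1) and TBK1 to the interferon response. NCoR is a corepressor that acts in a complex with the histone deacetylase HDAC3. The study examined whether ERK activity was needed for PGC1β and NCoR to come together at active genes in KLA-treated macrophages, and the libraries with inhibitor address that question for the genomic binding of PGC1β.

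The 4 libraries with KLA held 5.07 to 7.73 M tags, of which 23.4 to 28.1% lay in peaks, and the vehicle libraries held 6.86 and 12.3 M tags with 16.9 and 21.4% in peaks. The median peak was 259 bp wide and held 21 to 26 tags in the KLA libraries. On the log2 scale, replicates correlated across peaks with Pearson's r of 0.65 for DMSO with KLA and 0.68 for ERKi with KLA, and libraries of these different groups with 0.49 to 0.55. Replicates differed from each other by more than counting error, with a chi-square per degree of freedom of 2.84 to 3.67. Peaks assigned to 7 of 7 macrophage markers (Spi1, Csf1r, Adgre1, Cd68, Lyz2, Itgam and Tlr4) were present. Their summed level over 68 peaks was 4737 to 4846 tags per 10 M with DMSO and KLA and 3745 to 3818 with ERKi and KLA, and none of the peaks was called. Marker genes of T cells (4 of 5 genes, 6 peaks), B cells (2 of 4, 13 peaks), neutrophils (3 of 5, 4 peaks) and epithelial cells (3 of 4, 7 peaks) also had peaks, in smaller number. In that order they summed to 308 to 339, 783 to 922, 168 to 201 and 442 to 515 tags per 10 M with DMSO and KLA. With ERKi and KLA the sums were 229 to 249, 696 to 706, 91.8 to 136 and 467 to 479, with no call. The 3 peaks at 2 of 4 fibroblast markers summed to 34.2 to 47.4 tags per 10 M with DMSO and KLA and 94.4 to 114 with ERKi and KLA, with no call.

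The sequences below are examples of called peaks, shown because they hold the letters of the motifs whose shares are compared below. Most called peaks do not hold them (NF-κB in 15.5% of the higher windows, C/EBP in 40.0% of the lower). Each is the central 200 bases of a peak in mm10, read from the reference on the plus strand, 5′ to 3′. The first 3 belong to peaks that were higher with ERKi and held a match to the NF-κB consensus, which is in capitals, with overlapping matches run together. They lay in an intron of Icam1 at chr9:21021906-21022105, at -573 bp from the start of Mmp9 at chr2:164947546-164947745, and between genes near Peli1 at chr11:21034053-21034252.
Icam1: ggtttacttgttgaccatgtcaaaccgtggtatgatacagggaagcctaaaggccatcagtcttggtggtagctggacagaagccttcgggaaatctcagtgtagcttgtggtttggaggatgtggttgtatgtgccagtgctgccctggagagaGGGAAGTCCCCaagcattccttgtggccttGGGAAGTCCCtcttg
Mmp9: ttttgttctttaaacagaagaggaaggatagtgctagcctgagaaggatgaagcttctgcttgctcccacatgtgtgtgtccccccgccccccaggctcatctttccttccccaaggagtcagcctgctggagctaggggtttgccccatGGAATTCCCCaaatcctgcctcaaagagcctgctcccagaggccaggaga
Peli1: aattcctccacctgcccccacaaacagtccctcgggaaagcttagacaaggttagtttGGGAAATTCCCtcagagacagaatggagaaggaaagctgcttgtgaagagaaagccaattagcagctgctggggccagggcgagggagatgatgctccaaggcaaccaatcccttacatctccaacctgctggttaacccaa
The other 3 belong to peaks that were lower with ERKi. Capitals mark AP-1 matches (TGANTCA, read on both strands) and C/EBP matches (TTGCNNAA, read on both strands). The St6gal1 window in an intron at chr16:23314927-23315126 and the Saa3 window between genes at chr7:46719771-46719970 held a C/EBP match each. The Maf window between genes at chr8:115582082-115582281 held both kinds.
St6gal1: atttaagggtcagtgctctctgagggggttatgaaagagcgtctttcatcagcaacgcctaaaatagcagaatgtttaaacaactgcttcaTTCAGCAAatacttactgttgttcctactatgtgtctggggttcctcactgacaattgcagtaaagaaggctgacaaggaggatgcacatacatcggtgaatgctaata
Saa3: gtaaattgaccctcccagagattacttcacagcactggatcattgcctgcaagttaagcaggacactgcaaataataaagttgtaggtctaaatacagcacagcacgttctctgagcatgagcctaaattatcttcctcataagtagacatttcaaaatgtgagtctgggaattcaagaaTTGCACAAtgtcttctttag
Maf: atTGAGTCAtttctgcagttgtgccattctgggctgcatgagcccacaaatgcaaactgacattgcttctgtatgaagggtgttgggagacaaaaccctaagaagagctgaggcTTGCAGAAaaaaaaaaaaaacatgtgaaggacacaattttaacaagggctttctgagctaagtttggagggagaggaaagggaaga

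With the ERK inhibitor, PGC1β was higher at 58 peaks and lower at 95 peaks than with DMSO, among 53474 peaks in KLA-treated BMDMs. The higher peaks lay at 47 genes, among them chemokine genes (Ccl5, Ccl3, Ccl4, Cxcl1) and interferon-stimulated genes (Mx2, Mx1, Rsad2). The lower peaks lay at 90 genes, among them Enpp6, Cd5l, St6gal1, Saa3 and Maf. Tags were scaled by library totals, and a peak was called at more than a 2-fold change and a Benjamini-Hochberg adjusted p-value under 0.05 by edgeR's quasi-likelihood test. The calls were 0.108% of all peaks for the higher direction and 0.178% for the lower, against 16.4% (8761 peaks) higher and 1.23% (659 peaks) lower for KLA against vehicle with DMSO in the same fit (4658 and 1543 with TMM). The median log2 difference of all peaks, ERKi minus DMSO, was -0.20. Centring on all peaks by TMM moved it to 0.00 and gave 83 higher peaks (0.155%) and 43 lower peaks (0.0804%), of which 55 and 43 were also called by library totals. At 8837 peaks (16.5%) both ERKi libraries were above both DMSO libraries, and at 16771 peaks (31.4%) both were below. The counts rested on single libraries. Without DMSO KLA replicate 1 or without ERKi KLA replicate 1, 0 peaks were called higher and 0 and 1 were called lower, although 6082 and 6115 peaks had an unadjusted p under 0.05. Each of the 153 called peaks kept its direction with any 1 of the 4 KLA libraries left out. They had been selected for a large change in these same libraries, so this could hardly be otherwise and adds no support. DESeq2, which scaled by its own median-of-ratios size factors and not by library totals, called 341 higher and 219 lower peaks. Among them were 55 of the 58 and 89 of the 95. With median-of-ratios factors edgeR called 88 and 43.

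**Figure D1:**
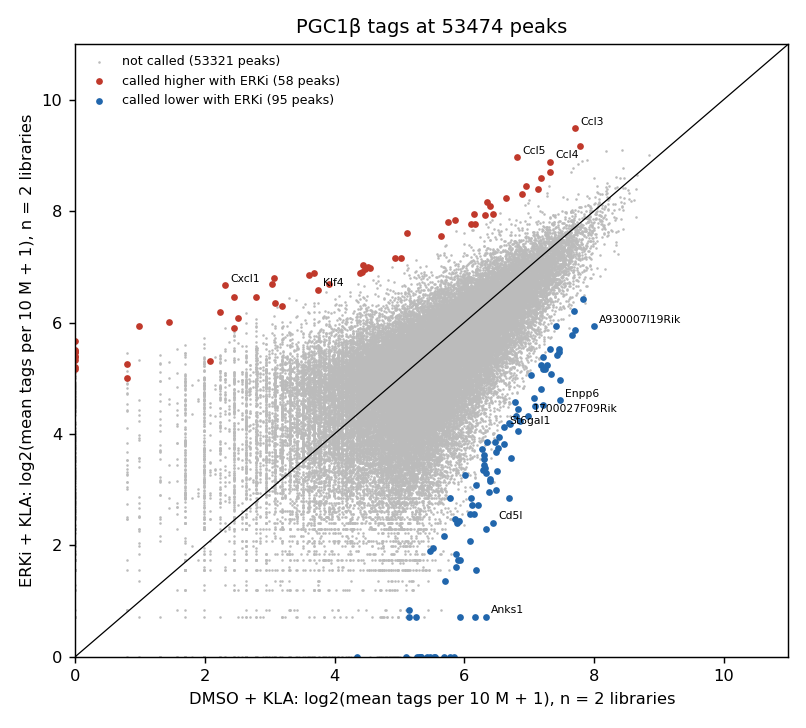
PGC1β tags per 10 M at 53474 peaks, as log2(mean + 1), with DMSO and KLA on the x axis and with ERKi and KLA on the y axis. Red points are the 58 peaks called higher with ERKi, blue points the 95 called lower, grey points the 53321 that were not called, and the line marks equal levels. Called peaks reach down to 0 tags in a group.

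The chemokine genes Ccl5 and Ccl3 held the 2 peaks with the lowest p-values in the higher direction. Ccl5 encodes a chemokine that attracts T cells and monocytes. At its strongest peak, in an intron at chr11:83526947-83527326, PGC1β gave 4.06 and 1.46 tags per 10 M with vehicle, 94.7 and 128 with DMSO and KLA, and 522 and 474 with ERKi and KLA. The 3 groups did not overlap, and the ERKi libraries were 4.44-fold above the DMSO libraries (log2 difference 2.15 ± 0.28 SE, adjusted p = 0.0018). Ccl3 and Ccl4 encode chemokines named macrophage inflammatory proteins. The Ccl3 peak at the transcription termination site (TTS), chr11:83647141-83647723, went from 37.4 and 69.9 with vehicle to 205 and 213 with DMSO and KLA and to 754 and 679 with ERKi and KLA (1.77 ± 0.25, adjusted p = 0.0033). The Ccl4 intron peak at chr11:83663937-83664245 held 21.9 and 29.1, then 132 and 186, then 524 and 418 (1.56 ± 0.27, adjusted p = 0.015). At each of these peaks, KLA raised PGC1β with DMSO and the libraries with inhibitor lay higher still.

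The called peaks of Heatr9, Ccl5, Ccl3 and Ccl4 lay in a single stretch of chromosome 11 that starts at 83524320. Of the peaks assigned to these genes, 3 of 14 at Ccl5, 2 of 17 at Ccl3, 2 of 9 at Ccl4 and 2 of 6 at Heatr9 were called higher. The Heatr9 peak at the TTS held 0.812 and 0 tags per 10 M with vehicle, 5.92 and 17.9 with DMSO and KLA, and 125 and 109 with ERKi and KLA (3.22 ± 0.60, adjusted p = 0.022). Cxcl1, which encodes a neutrophil-attracting chemokine, had 2 of 14 peaks called. Its TTS peak at chr5:90893323-90893691 was nearly empty with DMSO and KLA, at 1.97 and 5.95, against 75.1 and 127 with ERKi and KLA (4.54 ± 0.74, adjusted p = 0.012). The intron peak of Cxcl10, a ligand of CXCR3, rose from 67.1 and 90.8 to 293 and 193 (1.61 ± 0.35, adjusted p = 0.041). The intron peak of Tnf, the inflammatory cytokine, at chr17:35201005-35201522 rose from 164 and 153 to 413 and 421 (1.40 ± 0.26, adjusted p = 0.023). The strongest Ccl4 peak, 3377 bp downstream of the start, had 197 and 252 against 516 and 440 and stood just outside the threshold (1.09 ± 0.25, adjusted p = 0.051 by edgeR's quasi-likelihood test).

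Interferon-stimulated genes held a further part of the higher peaks. Of the 58, 12 (20.7%) lay at genes of the TLR4 list and 9 (15.5%) at genes of the interferon list, both described below. Most of the 58 lay in neither list. The antiviral GTPase genes Mx1 and Mx2 had 1 of 35 and 4 of 26 peaks called. The strongest Mx1 peak held 7.31 and 18.9 tags per 10 M with vehicle, 227 and 214 with DMSO and KLA, and 638 and 513 with ERKi and KLA (1.38 ± 0.26, adjusted p = 0.022). The strongest Mx2 peak, in an intron, held 16.2 and 13.1, then 77.0 and 89.3, then 327 and 218 (1.70 ± 0.33, adjusted p = 0.023). Neither peak showed overlap between the DMSO and ERKi libraries, which the calling rule favours. Rsad2 encodes the antiviral enzyme viperin and Cmpk2, its neighbour, a nucleotide kinase. Their strongest peaks were not called (1.53 ± 0.36, adjusted p = 0.059, and 1.42 ± 0.37, adjusted p = 0.083), but a weaker intron peak of each was. The Rsad2 intron peak held 15.8 and 43.2 with DMSO and 131 and 154 with ERKi (2.23 ± 0.50, adjusted p = 0.048), and that of Cmpk2 held 5.92 and 8.93 against 84.5 and 76.3 (3.38 ± 0.74, adjusted p = 0.045). An Ifit3 intron peak rose from 47.4 and 50.6 to 196 and 176 (1.92 ± 0.38, adjusted p = 0.027), while the strongest Ifit3 peak gave 1.08 ± 0.35 (adjusted p = 0.16). A peak 9805 bp downstream of the start of Irf1, a transcription factor of the interferon response, held 0 and 0 tags with DMSO and KLA and 43.8 and 45.3 per 10 M with ERKi and KLA, at least 17.5-fold higher. The fold was set against a floor of 3 tags over the DMSO libraries, and this peak was not called with TMM scaling (adjusted p = 0.062).

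**Figure D2:**
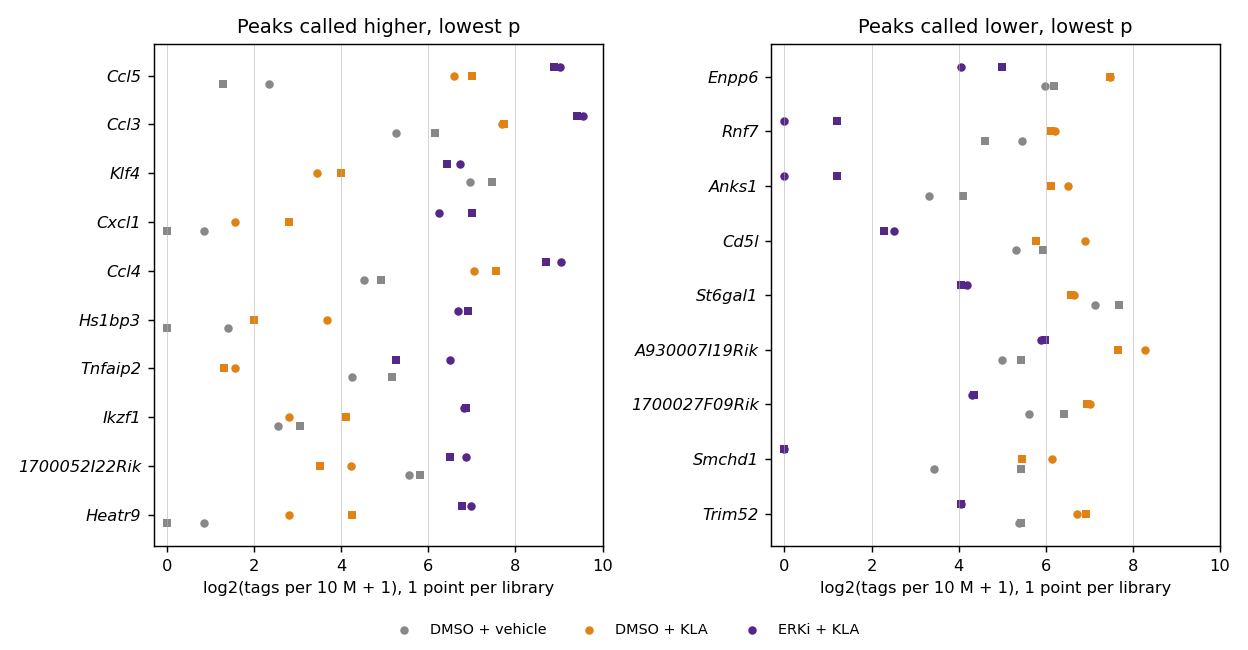
PGC1β level on the x axis as log2(tags per 10 M + 1) at the named higher and lower peaks of lowest p, 1 point per library (circles replicate 1, squares replicate 2). Grey marks DMSO with vehicle, orange DMSO with KLA and purple ERKi with KLA. At Ccl5 the purple points stand for 522 and 474 tags per 10 M and the orange points for 94.7 and 128; at Enpp6 the purple points stand for 15.6 and 31.0 and the orange for 178 and 176.

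As a group, 9 of the 216 peaks at 19 of 20 interferon response genes were called higher (4.17%, against 0.108% of all peaks). Of the 216, 0 were called lower (against 0.178% of all peaks), and the median log2 difference was 1.06 (1.27 with TMM). Peaks of a gene share their locus and are not independent of each other. The size of the difference varied with the place of the peak. At 138 peaks in introns, exons, UTRs or TTS the median was 1.38 and 110 (79.7%) had both ERKi libraries above both DMSO libraries, against 16.4% of all 25571 peaks in such places. Of the 138, 84 had entered the table through the ERKi libraries alone, as described below, and 78 of the 110 were among these. At 56 intergenic peaks the median was 0.53, and 28 (50%) had both ERKi libraries above both DMSO libraries, against 16.7% of all intergenic peaks. These intergenic values also include peaks that entered through the ERKi libraries alone, which are not set apart here. Over all 216 interferon peaks, 143 had both ERKi libraries above both DMSO libraries, and 102 of the 143 had entered in that way. At 22 promoter-TSS peaks of the same genes the median was 0.18. Summed over the 138 peaks, PGC1β gave 849 and 1029 tags per 10 M with vehicle, 5201 and 5137 with DMSO and KLA, and 11778 and 11001 with ERKi and KLA, a ratio of means of 2.20. Over the promoter-TSS peaks the sums were 1504 and 1569 with DMSO and 1644 and 1581 with ERKi. The highest medians were those of Cmpk2 (1.74, 15 of 16 peaks without overlap), Mx2 (1.58, 22 of 26), Ifit1 (1.41, 10 of 14) and Irf1 (1.30, 11 of 14). Over all peaks 16.5% lay without overlap in this direction. The counts by gene do not set apart peaks that entered the table through the ERKi libraries alone, which were 115 of the 216. Irf7, which encodes a transcription factor of the pathway, had a median of -0.16, and Ifi44 had the lowest at -0.37.

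A peak entered the table when it passed the irreproducible discovery rate (IDR) of the study in any condition, and a peak that passed with ERKi and KLA only was thereby selected for a high level there. Such peaks made up 115 of the 216 interferon peaks, and 5 of the 9 interferon peaks that were called higher. They also made up 36 of the 58 higher calls (62.1%), against 10.4% of all peaks. Peaks that passed with DMSO and KLA only made up 45 of the 95 lower calls (47.4%), against 14.1% of all. Restricted to the 71 interferon peaks that passed in both KLA conditions, the median was 0.31, against -0.17 for all 20513 such peaks. Within the genes it was 0.83 for 39 peaks, against -0.19 for 9542, and 23 of the 39 (59.0%) had both ERKi libraries above both DMSO libraries, against 12.5%. Summed over the 39, PGC1β gave 2959 and 2763 tags per 10 M with DMSO and KLA and 5439 and 4817 with ERKi and KLA, a ratio of means of 1.79. The interferon peaks within genes that had passed with DMSO and KLA only, selected for the opposite direction, numbered 11 and had a median of 1.04, against -1.21 for all 3966 such peaks.

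The list of 34 genes for TLR4-induced inflammation, all with a peak, had 12 of 393 peaks called higher (3.05%, against 0.108% of all peaks), at Ccl3, Ccl4, Ccl5, Cxcl1, Cxcl10, Tnf and Tnfaip3, and 1 called lower, at Saa3. The median over the list was 0.13 (0.34 with TMM). As with the interferon genes, the places differed. The median was 0.72 at 118 peaks within genes, of which 10 were called higher and 63 (53.4%, against 16.4% of all peaks within genes) had both ERKi libraries above both DMSO libraries, 0.10 at 43 promoter-TSS peaks, and -0.08 at 232 intergenic peaks. Of the 118, 41 had passed the IDR with ERKi and KLA only, and 27 of the 63 were among these. Summed tags per 10 M within genes were 9413 and 8272 with DMSO and KLA. With ERKi and KLA they were 15027 and 14109, a ratio of means of 1.65. At the 46 peaks within genes that passed the IDR in both KLA conditions the median was 0.59, 24 (52.2%, against 12.5%) had both ERKi libraries higher and the ratio of means was 1.64, and over all 200 such peaks of the list it was -0.01. All tested peaks had medians of -0.23 within genes, -0.12 at promoter-TSS and -0.20 between genes.

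**Figure D3:**
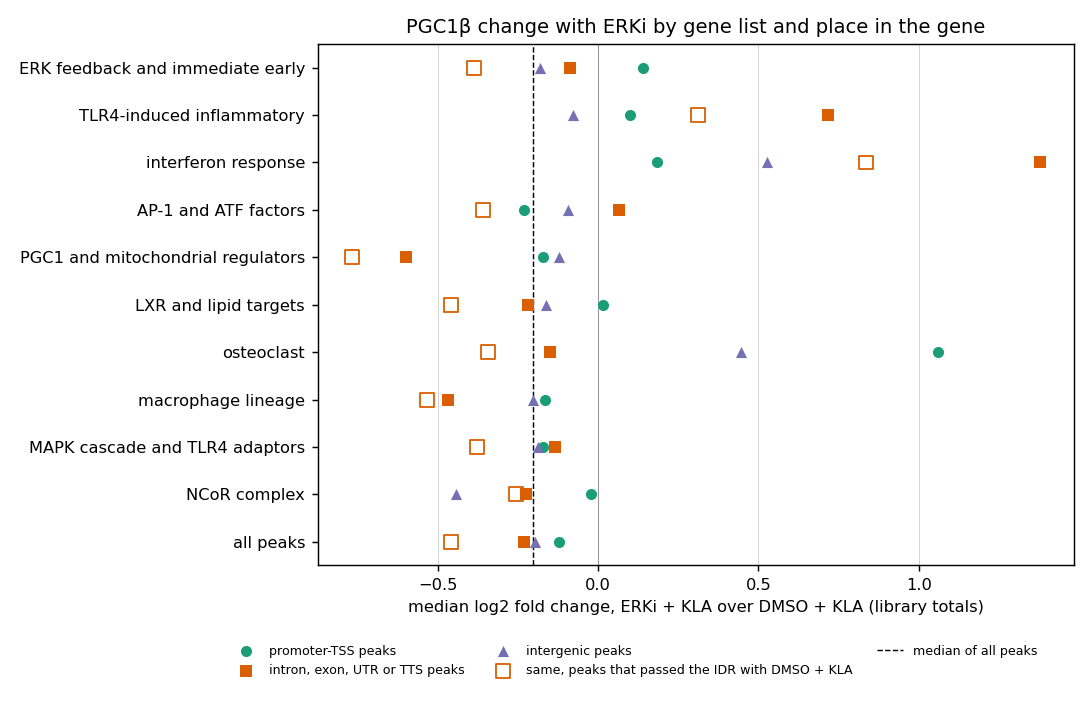
Median log2 difference in PGC1β, ERKi minus DMSO with KLA, for the 10 gene lists by place of the peak. Circles are promoter-TSS peaks, filled squares peaks within genes (intron, exon, UTR or TTS), triangles intergenic peaks, and open squares peaks within genes that passed the IDR with DMSO and KLA; the dashed line marks the median of all peaks at -0.20. The filled square of the interferon list stands at 1.38 and that of the TLR4 list at 0.72. Both include peaks that passed the IDR with ERKi and KLA only. The open squares of these lists stand at 0.83 and 0.31.

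Further higher peaks lay at genes outside the chemokine and interferon lists. Klf4, a transcription factor of monocyte differentiation, had a distal peak, -209091 bp from its start, at chr4:55741446-55741686. It held 123 and 176 tags per 10 M with vehicle, 9.87 and 14.9 with DMSO and KLA, and 105 and 85.3 with ERKi and KLA. The level with ERKi was therefore 7.43-fold that with DMSO (2.89 ± 0.47, adjusted p = 0.011) and below both vehicle libraries. An intron peak of Tnfaip2, a TNF-induced gene, was also lowest with DMSO and KLA, with 17.9 and 35.0, then 1.97 and 1.49, then 89.2 and 37.5, and there both ERKi libraries lay above both vehicle libraries. Its DMSO level rested on 2 tags, and the ratio of 33.8 had a 95% counting interval of 9.63 to 301 (adjusted p = 0.021). An intron peak of 1700052I22Rik held 46.3 and 55.4, then 17.8 and 10.4, then 116 and 89.2 (2.88 ± 0.53, adjusted p = 0.021). At these 3 peaks the contrasts of KLA against vehicle and of ERKi against DMSO share the DMSO KLA libraries.

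The peak at -12738 bp from the start of Ikzf1, which encodes the lymphoid and myeloid regulator Ikaros, held 5.92 and 16.4 with DMSO and KLA and 113 and 116 with ERKi and KLA (3.29 ± 0.59, adjusted p = 0.021). The intergenic peak nearest to Hs1bp3 held 11.8 and 2.98 against 102 and 119 (3.95 ± 0.69, adjusted p = 0.017). The genes that follow were chosen after their values were seen. An intergenic peak of Tnfaip3, whose product A20 restrains NF-κB signaling, rose from 65.1 and 75.9 to 191 and 246 (1.62 ± 0.34, adjusted p = 0.037). That of Peli1, a ubiquitin ligase of the TLR pathway, rose from 82.9 and 89.3 to 228 and 264 (1.51 ± 0.32, adjusted p = 0.039). The intron peak of the adhesion molecule gene Icam1 went from 7.90 and 34.2 to 142 and 106 (2.49 ± 0.53, adjusted p = 0.039). The promoter peak of Mmp9, which encodes gelatinase B, went from 11.8 and 4.47 to 81.3 and 73.7 (3.28 ± 0.70, adjusted p = 0.039). An intron peak of Cd40, a costimulatory receptor, went from 15.8 and 25.3 to 114 and 124 (2.51 ± 0.54, adjusted p = 0.041). In all of these the ERKi libraries stood clear of the DMSO libraries, which the calling rule favours and which adds no support of its own. Elk4 encodes an ETS factor that ERK phosphorylates, and an intron peak of it held 0 and 0 tags with DMSO and KLA and 46.9 and 23.3 per 10 M with ERKi and KLA, at least 13.3-fold higher.

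The lower peaks lay farther from gene starts and at other genes. The intergenic peak at -117306 bp from the start of Enpp6, a choline phosphodiesterase gene, at chr8:46869457-46869705, held 62.5 and 71.4 tags per 10 M with vehicle, 178 and 176 with DMSO and KLA, and 15.6 and 31.0 with ERKi and KLA. The ERKi level was the lowest of the 3 groups, 7.40-fold below that with DMSO (-2.89 ± 0.41, adjusted p = 0.0035). Another Enpp6 peak was also called lower (-1.81 ± 0.37, adjusted p = 0.031). St6gal1 encodes a sialyltransferase, and its intron peak at chr16:23314816-23315239 held 140 and 204 with vehicle, 98.7 and 95.3 with DMSO and KLA, and 17.2 and 15.5 with ERKi and KLA (-2.56 ± 0.42, adjusted p = 0.012). At Cd5l, which encodes a secreted macrophage survival factor, the intergenic peak went from 118 and 53.6 with DMSO to 4.69 and 3.88 with ERKi (-4.27 ± 0.68, adjusted p = 0.011).

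On chromosome 19, a peak at A930007I19Rik fell from 310 and 199 with DMSO and KLA to 57.9 and 62.1 with ERKi and KLA (-2.08 ± 0.34, adjusted p = 0.012), and 2 intron peaks of the neighbouring Pdcd1lg2, which encodes PD-L2, were also called lower (-2.13 ± 0.46 and -1.49 ± 0.33, adjusted p = 0.044 and 0.045), though not with TMM scaling (adjusted p = 0.075 and 0.071). Intergenic peaks at 1700027F09Rik (128 and 122 with DMSO, 18.8 and 19.4 with ERKi, -2.70 ± 0.46, adjusted p = 0.015) and Trim52 (105 and 121 with DMSO, 15.6 and 15.5 with ERKi, -2.84 ± 0.49, adjusted p = 0.017) fell as well. The DMSO and ERKi libraries did not overlap at any of these peaks, which the calling rule favours.

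At 14 of the 95 lower peaks both ERKi libraries held 0 tags, and at 11 more they held 1 to 3. The Smchd1 intron peak, at a gene for a chromatin protein of X inactivation, had 69.1 and 43.2 tags per 10 M with DMSO and 0 and 0 with ERKi, at least 25.6-fold lower (adjusted p = 0.015). The intergenic Rnf7 peak had 73.0 and 68.5 with DMSO and 0 and 1.29 with ERKi, where the latter rests on 1 tag. Its ratio of DMSO to ERKi was 81.5, with a 95% counting interval of 17.4 to 3977 (adjusted p = 0.0047). The Anks1 intron peak had 90.8 and 68.5 against 0 and 1.29, a ratio of 91.6 with an interval of 19.3 to 4403 (adjusted p = 0.0047). In the higher direction, 10 of the 58 peaks held 0 tags in both DMSO KLA libraries and 4 held 1 to 3. The intervals and the floor cover counting error only.

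Other lower peaks at genes of macrophage function were chosen after their values were seen. At Saa3, an acute-phase gene induced through TLR4, an intergenic peak held 2.44 and 10.2 tags per 10 M with vehicle, 219 and 135 with DMSO and KLA, and 37.5 and 23.3 with ERKi and KLA (-2.54 ± 0.47, adjusted p = 0.021). At Maf, a macrophage transcription factor gene, a peak fell from 150 and 144 to 37.5 and 6.46 (-2.79 ± 0.49, adjusted p = 0.020). An intron peak of Atp6v0d2, the osteoclast proton pump subunit gene, fell from 75.0 and 41.7 to 4.69 and 3.88 (-3.71 ± 0.65, adjusted p = 0.018). An intron peak of Cybb, the NADPH oxidase subunit gene, went from 98.7 and 65.5 to 10.9 and 2.59 (-3.61 ± 0.75, adjusted p = 0.032), and a peak near the chemokine receptor gene Ccr1 from 73.0 and 83.4 to 10.9 and 11.6 (-2.77 ± 0.59, adjusted p = 0.039). The Cybb and Ccr1 peaks were not called with TMM scaling (adjusted p = 0.067 and 0.063). Both libraries with ERKi lay below both with DMSO at each of these 5 peaks, which follows largely from how they were chosen.

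At the 7 loci that the study followed, no peak was called. Over all peaks 0.108% were called higher and 0.178% lower, so few or no calls would be found in so few peaks at the background share. The promoter peak of Ptgs2, which encodes cyclooxygenase 2, held 20.3 and 5.83 tags per 10 M with vehicle, 124 and 125 with DMSO and KLA, and 145 and 138 with ERKi and KLA (0.19 ± 0.37, adjusted p = 0.86). Over the 13 peaks assigned to Ptgs2 the median was 0.87 (1.08 with TMM). At 11 of the 13 both ERKi libraries were above both DMSO libraries, against 16.5% of all peaks, and 6 of these 11 had passed the IDR with ERKi and KLA only. The Cp peak in the 5′ UTR of the ceruloplasmin gene held 6.50 and 8.74, then 134 and 137, then 61.0 and 67.2. Both ERKi libraries lay below both DMSO libraries there, but the difference did not pass the test over all peaks (-1.08 ± 0.40, adjusted p = 0.22). The Il12a peak, 22388 bp downstream of the start, had 37.5 and 81.9 with DMSO and 78.2 and 109 with ERKi, and the groups overlapped (0.63 ± 0.47, adjusted p = 0.56). The osteoclast genes Acp5 (-0.78 ± 0.44, adjusted p = 0.42) and Ocstamp (-0.44 ± 0.38, adjusted p = 0.62) and the lipid genes Abca1 (0.42 ± 0.30, adjusted p = 0.54) and Scd2 (-0.26 ± 0.38, adjusted p = 0.80) gave values of either sign. Medians over all peaks of the other 6 loci ran from -0.83 for the 6 peaks of Scd2 to 0.33 for the 4 of Ocstamp.

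The genes of the kinase pathway and of PGC1β itself had no called strongest peak either. Ppargc1b, whose peak lay at -1459 bp from the start, had 96.7 and 49.1 tags per 10 M with DMSO and 81.3 and 86.6 with ERKi (0.22 ± 0.42, adjusted p = 0.85). Mapk3 (0.21 ± 0.46, adjusted p = 0.87) and Traf6 (0.52 ± 0.38, adjusted p = 0.56), the ERK1 gene and the gene of the TLR4 ubiquitin ligase, were not distinguishable from 0. At Ppargc1b and Mapk3 the direction changed when 1 library was left out. Of 155 peaks at 25 MAPK cascade and TLR4 adaptor genes, 1 was called higher (Elk4) and 1 lower, and the lowest p among the strongest peaks was that of Ticam1, the TRIF gene (126 and 95.3 against 37.5 and 58.2, -1.19 ± 0.42, adjusted p = 0.19).

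No peak was called in 5 of the 10 lists. Over all peaks 0.108% were called higher and 0.178% lower, so lists of this size hold few or no calls at the background share. At 29 of 30 ERK feedback and immediate early genes, which ERK signaling induces, 0 of 311 peaks passed and the median was -0.10 (0.12 with TMM). The peaks with the lowest p there were those of Jun (53.3 and 84.8 against 136 and 127, 0.91 ± 0.36, adjusted p = 0.25), Dusp4, an ERK phosphatase gene (0.77 ± 0.35, adjusted p = 0.31), and Etv4 (-0.99 ± 0.48, adjusted p = 0.35). At 15 of 16 AP-1 and ATF genes, 0 of 161 peaks passed, with Atf4 at -1.55 ± 0.58 (adjusted p = 0.22) and Bach1 at 0.81 ± 0.32 (adjusted p = 0.25). The 71 peaks at 16 of 25 genes for PGC1 partners and mitochondrial regulators had a median of -0.48 (-0.28 with TMM), with cytochrome c (Cycs) at -0.63 ± 0.36 and Pparg at -0.60 ± 0.34 (adjusted p = 0.43 for both). The 86 peaks at LXR and lipid targets had a median of -0.15 (0.07 with TMM), with Insig1, a brake on sterol synthesis, at 1.22 ± 0.52 (adjusted p = 0.28). The 96 peaks at NCoR complex genes had a median of -0.33 (-0.12 with TMM), with Gps2, a core subunit, at -0.99 ± 0.65 (adjusted p = 0.50). In the osteoclast list 1 of 87 peaks was higher (Mmp9) and 1 lower (Atp6v0d2), and its cathepsin K (Ctsk) peak gave -1.10 ± 0.39 (adjusted p = 0.20). In the macrophage lineage list 1 of 285 peaks was lower (Maf), and the median was -0.34 (-0.12 with TMM). Among peaks that passed the IDR in both KLA conditions, the median of all 20513 was -0.17. There the list of PGC1 partners and mitochondrial regulators had a median of -0.20 (24 peaks). The NCoR complex list had -0.15 (31 peaks) and the macrophage lineage list -0.20 (138 peaks), so these lists lay near all such peaks.

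Higher and lower peaks differed in where they lay. TTS peaks made up 10 of the 58 higher peaks (17.2%), 0 of the 95 lower and 1.93% of all. Peaks within 2 kb of a transcription start made up 22.4% of the higher, 7.37% of the lower and 20.0% of all. The median distance to the nearest start was 7834.5 bp for the higher, 30823 bp for the lower and 14522 bp for all peaks. Median log2 differences were -0.13 for the 10685 promoter peaks (13 higher, 7 lower) and -0.22 for the 42789 distal peaks (45 higher, 88 lower).

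Of 13 motifs searched in the central 200 bp of each peak, NF-κB and C/EBP differed most in share between the groups. The NF-κB consensus was present in 9 of the 58 higher windows (15.5%), in 0 of the 95 lower windows and in 6.02% of all 53474. The 9 were at Hs1bp3, Gm20125, Fam49b, Asap1, Csf1, Mmp9, Icam1, Peli1 and Kcnq1, and the Icam1, Mmp9 and Peli1 windows are those printed above. The C/EBP letters were present in 38 of the 95 lower windows (40.0%), in 5.17% of the higher and in 13.8% of all. With the TMM calls the shares were 12.0% for NF-κB among the higher and 37.2% for C/EBP among the lower. AP-1 letters were in 6.90% of the higher, 15.8% of the lower and 18.1% of all windows, and a search for the interferon-stimulated response element (ISRE) matched in 0, 6.32% and 5.06%. Matches shared bases with another searched motif in 3.54% of windows for NF-κB, 1.02% for C/EBP and 0.949% for AP-1. All 7361 peaks with C/EBP letters had a median log2 difference of -0.39 (-0.19 with TMM). Among those that passed the IDR in both KLA conditions it was -0.05 with TMM, against 0.04 for all such peaks. All 3217 peaks with NF-κB letters had a median of 0.03 (0.24 with TMM). That value was not restricted by IDR and may include peaks that passed with ERKi and KLA only. These are shares of letters, not of bound factors.

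**Figure D4:**
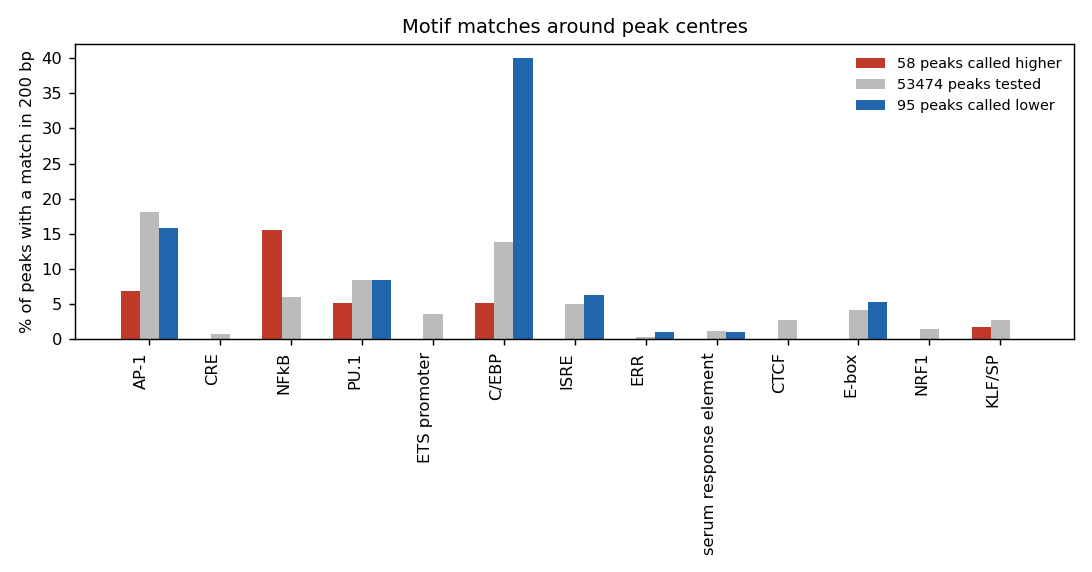
Percent of 200 bp windows at PGC1β peaks that held a match to each of 13 motifs, as bars from 0, for the 58 peaks called higher with ERKi, all 53474 peaks and the 95 called lower. C/EBP stands at 40.0% of the lower peaks against 13.8% of all, and NF-κB at 15.5% of the higher peaks against 6.02% of all.

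Other libraries of the series gave further measures at the same sites, with peak centres matched within 500 bp. H3K27ac, a mark of active enhancers and promoters, was called lower in Pgc1b flox Cre than in Pgc1b flox BMDMs with KLA at 11 of the 95 lower PGC1β peaks. An H3K27ac peak was there to compare at 27 of the 95 (40.7% called), at 18278 of all peaks (8.34% called) and at 5 of the 58 higher (0 called), too few to set beside the others. The 11 lay at Fnip2 (2 peaks), Enpp6, Maf, Smchd1, Trim52, Serpinb2, Rab3gap1, Srd5a2, Gm4719 and Gm13986. At the Fnip2 intron peak with the lower H3K27ac value, PGC1β went from 96.7 and 109 tags per 10 M with DMSO to 20.3 and 14.2 with ERKi (-2.58 ± 0.46, adjusted p = 0.021) and H3K27ac differed by -1.66 with the Pgc1b deletion. Over all 1525 peaks where H3K27ac was lower with the deletion, the median PGC1β difference with ERKi was -0.48 (-0.27 with TMM), with 0 called higher and 11 lower (0.721%). TMM scaling of H3K27ac left 246 such peaks, with 4 called lower. KLA-gained ERK1 peaks lay at 24.1% of the higher, 13.7% of the lower and 4.43% of all PGC1β peaks, and at 42.4%, 24.1% and 10.3% of those with any ERK1 peak. For p65, the NF-κB subunit, a peak lay at 29 of the 58 higher, 85 of the 95 lower and 60.8% of all PGC1β peaks. Among these it was KLA-gained at 65.5%, 62.4% and 54.1%, with median log2 changes with KLA of 2.72, 1.51 and 1.23.

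At the 1017 peaks near KLA-gained H3K27ac with both NCoR and HDAC3, 0 peaks were called by edgeR with either scaling, against 0.108% higher and 0.178% lower over all peaks. A class of this size holds few or no calls at the background share, so the 0 does not set these sites apart. This class was built here by matching PGC1β peaks and is not the study's own list of sites. The median log2 difference there was -0.01 (0.20 with TMM), and summed tags per 10 M were 83960 and 77969 with DMSO and KLA and 80928 and 77931 with ERKi and KLA, so the groups overlapped. At 5646 peaks that gained PGC1β with KLA in separate libraries without solvent, 7 were called higher (0.124%) and 29 lower (0.514%), with a median of -0.35 (-0.15 with TMM). At the 2097 peaks that lost PGC1β with KLA in those libraries the median was -0.02 (0.17 with TMM).

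ERK inhibition was also combined with NCoR ChIP-seq in other libraries, where NCoR_WT_ERKi_KLA was set against NCoR_WT_KLA. The NCoR controls carry another library date and no DMSO in their labels, so inhibitor, solvent and date cannot be told apart for NCoR. The share of NCoR tags in peaks was 34.2 and 33.3% with KLA and 15.8 and 15.0% with ERKi and KLA. Of the 95 lower PGC1β peaks, 86 had an NCoR peak within 500 bp, with a median NCoR difference of -2.14 by totals and -0.97 with TMM, and 81 of them (94.2%) were below 0 with TMM. Of the 58 higher PGC1β peaks, 37 had an NCoR peak, with medians of -0.01 and 1.16, and 34 (91.9%) were above 0 with TMM. All 35423 PGC1β peaks with an NCoR peak had NCoR medians of -1.12 and 0.04, and 52.4% were above 0 with TMM. With TMM, which is relative to the centre of all peaks, NCoR and PGC1β thus lay on the same side at most called PGC1β peaks. By totals this held for the lower peaks only. NCoR was then below 0 at 85 of the 86 and at 19 of the 37, against 33185 of all 35423. Of the 37, NCoR was called higher at 2 and lower at 2 by totals, and it was not called at 33. At the Fnip2 peak above the NCoR difference was -4.39 and at Saa3 -2.42, while at Ccl3 it was -0.12 and at Tnf 0.25, by totals. Read from NCoR, the 1076 PGC1β peaks where NCoR was called lower with TMM had a median PGC1β difference of -1.02 (-0.81 with TMM) and the 1402 where it was called higher 0.53 (0.73).

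**Figure D5:**
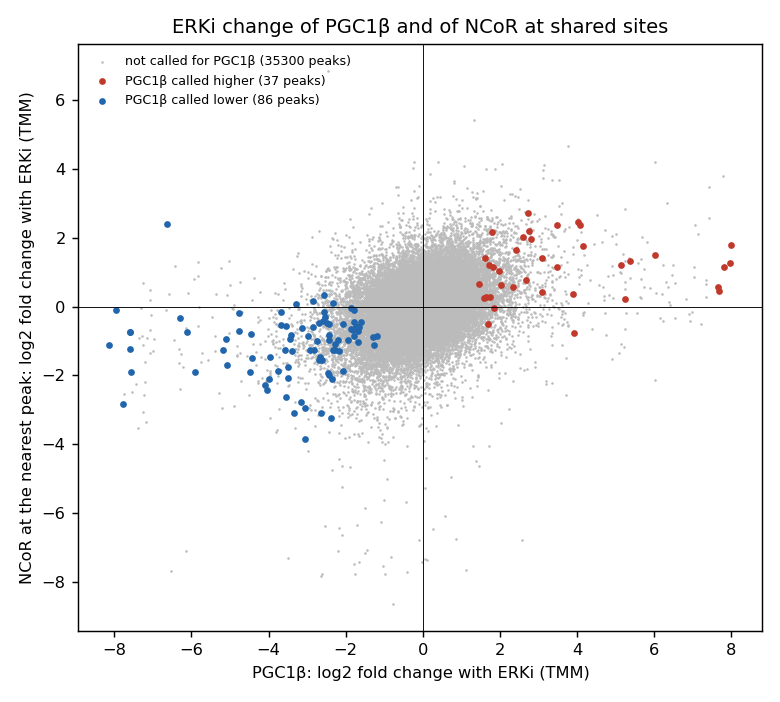
Log2 difference with ERKi, with TMM scaling, of PGC1β (x axis) and of NCoR at the nearest peak (y axis), both in KLA-treated BMDMs. Red points are 37 PGC1β peaks called higher, blue points 86 called lower and grey points 35300 not called; 81 of the blue points are below 0 for NCoR and 34 of the red points above 0. Values near the edges include peaks with 0 tags in a group, where fitted differences depend on the prior count.

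Whether the inhibitor changed PGC1β and NCoR differently was tested as an interaction at 32721 peaks matched within 100 bp (61.2% of PGC1β peaks). By library totals, PGC1β changed upward relative to NCoR at 4219 peaks (12.9%) and downward at 38 (0.116%), with a median difference of 0.90 between a PGC1β median of -0.24 and an NCoR median of -1.13. With TMM within each factor the counts by edgeR were 0 and 0, the lowest adjusted p was 0.065, 3893 peaks had an unadjusted p under 0.05 and the median was 0.01. The contrast by totals also rested on the NCoR controls, with 276 and 0 peaks without NCoR KLA replicate 1 and 506 and 0 without replicate 2. At Ptgs2, PGC1β held 124 and 125 tags per 10 M with KLA and 145 and 138 with ERKi, and NCoR 165 and 158 with KLA and 68.5 and 44.8 with ERKi, a difference of 1.69 ± 0.37 by totals (adjusted p = 0.010) and of 0.80 with TMM (adjusted p = 0.38). The Klf4 peak gave 3.64 ± 0.61 (adjusted p = 0.0048) and with TMM 2.74 (adjusted p = 0.13). The strongest Ccl4 peak gave 1.80 ± 0.34 (adjusted p = 0.0067) and with TMM 0.91 (adjusted p = 0.29), and the Jun peak 1.99 ± 0.41 (adjusted p = 0.0086) and with TMM 1.09 (adjusted p = 0.31). In the other direction, Ccl11, chosen after its values were seen, had PGC1β at 79.0 and 127 with KLA and 23.5 and 24.6 with ERKi, and NCoR at 45.4 and 45.0 against 52.4 and 60.3, a difference of -2.42 ± 0.54 (adjusted p = 0.012) and with TMM of -3.32 (adjusted p = 0.065).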

How the data were processed

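The authors deposited raw tag counts per peak, whole numbers without normalization, with each library's total in the column header. Per the study's methods and the labels, reads were mapped as single ends by Bowtie2 onto mm10, HOMER called peaks, peaks were kept by IDR between replicates and merged over conditions, and tags were counted with at most 3 per position. Chromatin was fixed with disuccinimidyl glutarate and formaldehyde. Program versions are not given in the sources used here. Input libraries were not analysed here.

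Groups came from the labels alone. The 6 PGC1b libraries (5.07 to 12.3 M tags) were fitted together by the two-sided quasi-likelihood F-test of edgeR 4.0.16 (R 4.3.3), with header totals as library sizes, on peaks where any library held 4 tags or more. Values are tags per 1e+07 tags (10 M). Calls were changes above 2-fold whose Benjamini-Hochberg adjusted p was under 0.05. Standard errors were obtained from the log2 difference and the square root of F. Counting intervals are exact for a ratio of 2 Poisson counts (95%), and the floor for groups at 0 was 3 tags over the group. Other tables were fitted likewise (at least 16 tags for H3K27ac) and matched by centres within 500 bp (100 bp between PGC1b tables and for the interaction with NCoR) with GenomicRanges 1.54.1. Motifs (AP-1, CRE, NF-κB, PU.1, ETS promoter, C/EBP, ISRE, ERR, serum response element, CTCF, E-box, NRF1 and KLF/SP) were searched on both strands in 200 bp.

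Of 53474 peaks, 53466 lay on reference chromosomes of mm10. For 50241 of the 53121 with a RefSeq transcript (94.6%), the recomputed distance to the start was within 10 bp of the listed one. Deviations of replicates with the same number did not correlate between groups (0.0084, -0.0028 and 0.0040), and the libraries were treated as unpaired.

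The text names the 10 called peaks of lowest p per direction on chromosomes with a gene name, the strongest peak of each of 7 study loci and 3 kinase pathway genes, and in each of 10 gene lists the strongest peaks with the lowest p (at most 5), plus others said to be chosen after their values were seen. A few genes that these rules would name are not reported here. The comparison, the lists and the rules were chosen with earlier results of these data known. Alternatives were TMM and median-of-ratios scaling, DESeq2 1.42.0, other filters, the 4 KLA libraries alone, the PGC1b libraries without solvent added, the replicate block, each library left out, and, chosen after seeing the data, peaks that passed the IDR in both KLA conditions.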

Additional observations from a re-analysis of the deposited data

Results flagged for a closer look

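A difference between factors under the same contrast drew attention. By library totals, the interaction of factor and inhibitor was called in the direction of PGC1β at 4219 matched peaks and in the direction of NCoR at 38. With TMM scaling within each factor both counts were 0, with 3893 peaks at an unadjusted p under 0.05. The share of NCoR tags in peaks (33.3 to 34.2% with KLA, 15.0 to 15.8% with ERKi and KLA) moved with this result, and so did the library date of the NCoR controls. Their part in it was not tested beyond the change of scaling.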

How the results depend on the processing

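The 58 higher and 95 lower calls became 83 and 43 with TMM and 88 and 43 with median-of-ratios size factors. They became 341 and 219 with DESeq2, which also used median-of-ratios size factors. With the PGC1b libraries without solvent added they became 94 and 377, among 34165 peaks that could be matched and tested. Of the 58 higher and 95 lower calls, 17 and 69 could be tested there, and 15 and 69 were shared. With the replicate block they became 22 and 41, of which 22 and 40 were shared. The 36 higher and 55 lower calls lost with the block include those described for Cxcl10, Rsad2, Cmpk2, Ifit3, Irf1, Tnfaip3, Peli1, Icam1, Mmp9, Cd40, Elk4, Ccr1, Pdcd1lg2 (both peaks) and the other Enpp6 peak, whose adjusted p were then 0.051 to 0.093. Leaving out 1 library gave 0 to 8 higher and 0 to 21 lower calls. Other filters (55 to 58, 92 to 95) and the 4 KLA libraries alone (82 and 123) stayed within 1.5 times. The cause of these changes was not tested.

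The interaction calls (4219 and 38) were 0 and 0 with TMM and ranged over 276 to 4622 and 0 to 130 with 1 library left out. Median log2 differences with TMM and median-of-ratios scaling were 0.0036 and 0.0084 over all peaks, 0.081 and 0.085 at promoters, -0.014 and -0.0094 at distal peaks, 0.20 and 0.20 at NCoR and HDAC3 sites with gained H3K27ac (-0.048 to 0.058 with 1 library left out), 0.34 and 0.35 for the TLR4 list and 1.27 and 1.27 for the interferon list (0.98 to 1.02 with 1 library left out). Among peaks that passed the IDR in both KLA conditions, an alternative chosen after seeing the data, the TLR4 list gave -0.0053 and the interferon list 0.31.

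With 1 library left out, the strongest peak of Ppargc1b ranged from -0.20 to 0.77, that of Mapk3 from -0.27 to 1.02 and that of Nfkb2 from -0.19 to 1.67. Libraries of 5.07 to 7.73 M tags, with 21 to 26 tags at the median peak, limit what single peaks can show.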
